A study of Mus musculus with 39 samples.

Results

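The genes described here are the sodium and potassium channel genes of the mouse sciatic nerve. They were the protein-coding genes whose GENCODE symbol begins with Kcn or names an Scn alpha or beta subunit, and whose mean level over all 39 libraries reached 0.5 CPM (the gene's counts scaled to the library's total counts). Of 108 genes with such a symbol, 61 reached that level, out of 55573 genes counted in all. Members were thus chosen by their level over all libraries, healthy and injured, and which genes are present is a consequence of that rule. The lowest members were Kcnn3 at a mean of 0.536 CPM and Kcne3 at 0.509 CPM, and the nearest genes left out were Kcne1l at 0.440 CPM and Kcnmb1 at 0.436 CPM. Kcnma1 (0.348 CPM), Kcnq3 (0.143 CPM) and Kcnj16 (0.0220 CPM) also stayed below the level.

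The libraries were bulk RNA-seq of sciatic nerve endoneurium, the inner part of the nerve that holds axons and Schwann cells, taken distal to a unilateral crush. The injured nerve and the uninjured nerve of the other side (healthy) were collected at 2 or 4 weeks post crush (wpc) from C57BL/6 mice aged between 2 and 4 months, of both sexes. Lepr-ctrl mice carried floxed leptin receptor alleles (Leprfl/fl) without Cre. Lepr-cKO mice were Leprfl/fl::Dhh-Cre, so that exon 1 of Lepr was deleted in cells with an active Dhh promoter, which are Schwann cells and their precursors, and a truncated receptor transcript remained. At 2 wpc there were 5 healthy and 5 injured Lepr-ctrl libraries and 6 healthy and 5 injured Lepr-cKO libraries. At 4 wpc there were 5 healthy and 4 injured libraries of each genotype. The 39 libraries came from 22 animals, 17 of which gave both nerves, and each time point used its own animals.

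Library totals ranged from 10905806 to 45016322 counts with a median of 27752451, so 0.5 CPM was 5.45 counts in the smallest library. From here on CPM values are scaled with TMM factors, which equalize the bulk of genes between libraries, except that levels per kilobase and the levels of overlapping genes are scaled to library totals. Lepr, which the deletion leaves transcribed, was measured at 5.79 to 14.7 CPM in 21 healthy and 20.8 to 121 CPM in 18 injured libraries. Injured nerves at 2 wpc held 31.7 to 68.2 CPM (median 64.8) in Lepr-ctrl and 31.0 to 121 CPM (median 62.0) in Lepr-cKO. At 4 wpc the injured ranges were 20.8 to 71.5 CPM (median 42.9) and 24.0 to 36.7 CPM (median 30.7). The genotypes overlapped at both times, so Lepr gave no check of the genotype. The paper reports lower Lepr mRNA by qPCR in injured Lepr-cKO endoneurium at the earlier time. The overlapping ranges of that time do not show such a reduction. In skeletal muscle genes 1 library stood apart, the injured Lepr-cKO nerve of animal SLRKO2wpc126 (the labels' name, which begins alike in both genotypes at 2 wpc) at 2 wpc. The summed level of 10 skeletal muscle genes was 40241 CPM there and 6.69 to 37.7 CPM in the other 38 libraries. Of the 61 members, 16 had their highest value in that library, so for the Lepr-cKO injury comparison at 2 wpc the value without it is given wherever that changed a member's call or moved a called fold change by over 1.5 times. Its part in them was not tested beyond these values. Mitochondrially encoded genes held 1.92% to 4.25% of counts in healthy and 2.95% to 33.0% in injured libraries. The 33.0% was in injured Lepr-ctrl animal SLRKO2wpc144 at 2 wpc, against 8.19% to 11.8% in the rest of its group. The 2.95% was in injured Lepr-cKO animal KO-169 at 4 wpc, against 9.84% to 20.2%. Beyond a normalization without these genes, the part of this share in the results was not tested. In bulk samples fewer cells of a type and less RNA per cell cannot be told apart.

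Voltage-gated sodium channels carry the rising phase of the action potential and potassium channels set the resting potential and end the spike. In a myelinated axon the sodium channels are clustered at the nodes of Ranvier and Kv1 potassium channels lie beneath the myelin beside them, held by scaffold proteins shared between axon and Schwann cell. The cell bodies of the sensory and motor neurons lie outside the piece of nerve that was collected, and Schwann cells express their own voltage-gated, inward rectifier and two-pore-domain (K2P) potassium channels. Levels of different genes are compared per kilobase of exon. A gene is said to have risen or fallen where edgeR's quasi-likelihood test gave a Benjamini-Hochberg adjusted p under 0.05 over all 18442 tested genes and an absolute log2 fold change above 1, the thresholds the study used. Each SE printed with a log2 value is that value's absolute size divided by the square root of the test's F statistic. It was not estimated separately and is approximate.

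The members held 0.224% ± 0.0207 (SD, n = 5) of all counts in healthy Lepr-ctrl nerves at 2 wpc and 0.177% ± 0.0432 (n = 5) in the injured nerves. At 4 wpc the shares were 0.251% ± 0.0280 (n = 5) and 0.114% ± 0.020 (n = 4). In Lepr-cKO the healthy and injured shares were 0.223% ± 0.0170 (n = 6) and 0.176% ± 0.0323 (n = 5) at 2 wpc, and 0.255% ± 0.0340 (n = 5) and 0.167% ± 0.0455 (n = 4) at 4 wpc. These are shares of library totals that include the mitochondrially encoded genes. Those genes held 1.92% to 4.25% of counts in healthy and 2.95% to 33.0% in injured libraries, and a higher share of them leaves less for the members. In the healthy Lepr-ctrl libraries at 2 wpc 5 genes supplied 75.3% to 81.5% of the members' counts in a library. Per kilobase of exon the most abundant members, averaged over all libraries, were Scn7a at 68.7 CPM per kilobase, Kcnk1 at 63.6, Kcna2 at 45.4, Kcna6 at 32.2 and Kcna1 at 30.0. These are a sodium-sensing channel, a K2P channel and 3 Kv1 subunits.

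Of the 61 members 57 passed the expression filter and were tested. In Lepr-ctrl nerves at 2 wpc, 14 rose and 18 fell with injury, where 19.8% of all tested genes rose and 14.3% fell (34.1% in either direction). In Lepr-cKO at 2 wpc, 17 rose and 16 fell (20.9% and 13.4% of all genes, 34.3% together), and without the injured library of animal SLRKO2wpc126 the counts were 13 and 17. In Lepr-ctrl at 4 wpc 12 rose and 18 fell (20.1% and 15.9% of all genes, 35.9% together), and in Lepr-cKO at 4 wpc 12 rose and 17 fell (16.8% and 10.8% of all genes, 27.6% together). The share of members that fell was 31.6%, 28.1%, 31.6% and 29.8% in these 4 comparisons in that order. The median log2 fold change of the tested members was 0.06, 0.20, -0.35 and -0.01, and that of all genes 0.08, 0.10, 0.02 and 0.06, in the same order. Part of the count that rose came from how members were chosen. Of the tested members 6 (Kcnab3, Kcna4, Kcnk10, Kcnc2, Kcnk3 and Kcne3) reached 0.5 CPM only through the injured libraries, so they had to be higher there. They supplied 6 of the 14 that rose in Lepr-ctrl and 6 of the 17 in Lepr-cKO at 2 wpc. At 4 wpc they supplied 5 of the 12 in each genotype. Scn9a reached the level only through the healthy libraries.

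**Figure D1:**
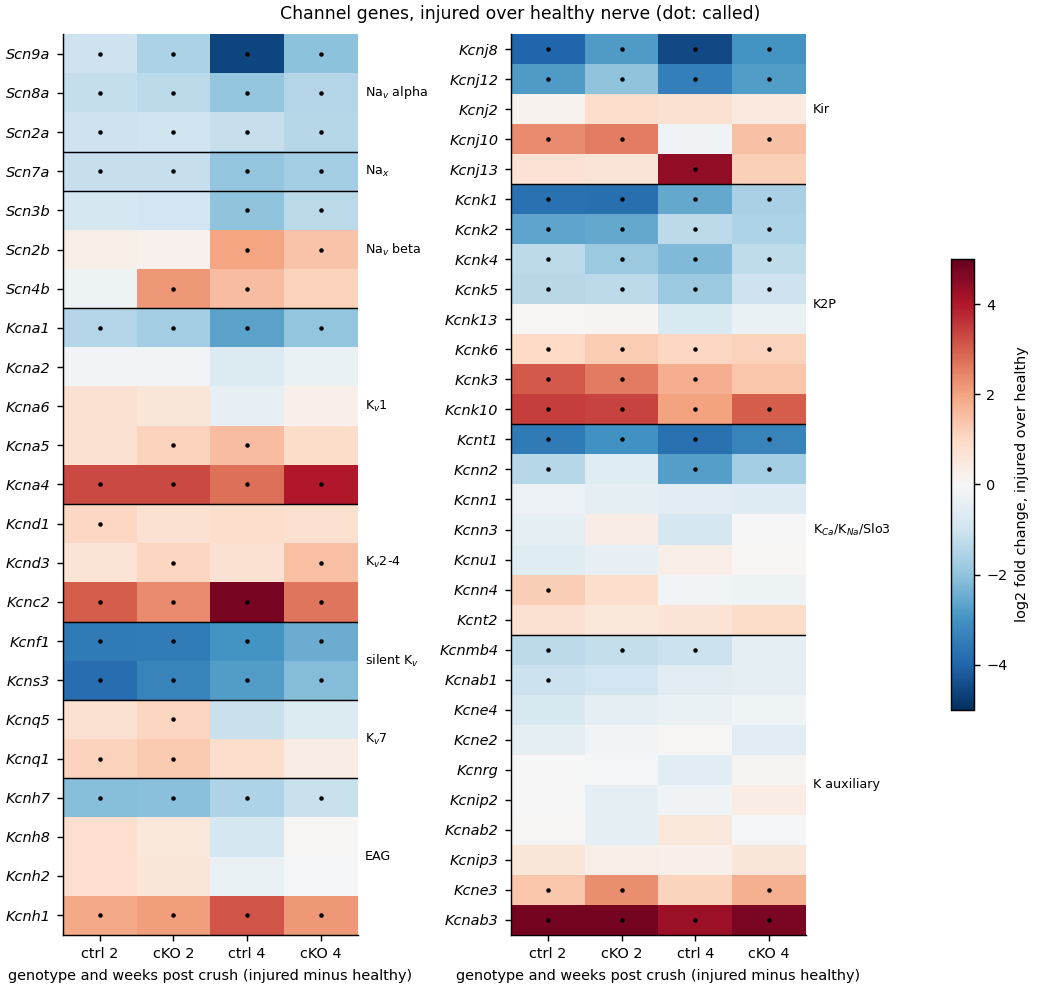
Log2 fold change of 53 tested members, injured over healthy nerve, for Lepr-ctrl and Lepr-cKO at 2 and 4 weeks post crush (columns), ordered by channel type (rows); red is higher and blue lower in injured nerves, and a black dot marks a gene that passed both thresholds. In it 15 genes are blue with a dot in all 4 columns and 6 are red with a dot in all 4, while the Scn9a value in Lepr-ctrl at 4 wpc rests on 3 counts in the injured group.

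In all 4 comparisons 7 members rose, among them Kcnk6, Kcnab3, Kcnh1, Kcna4, Kcnk10 and Kcnc2, where 11.9% of all genes did so. Of these, Kcnab3, Kcna4, Kcnk10 and Kcnc2 were members only through the injured libraries. Their higher level there was thus set by the rule, and the count is not to be read against that share. Another 15 fell in all 4, Scn7a, Kcna1, Kcnk1, Kcnk5, Kcnk2, Scn8a, Kcnj12, Kcns3, Kcnh7, Kcnt1, Kcnk4, Kcnj8, Scn2a, Kcnf1 and Scn9a, where 7.65% of all genes did so. A further 14 rose and 4 fell in 1 to 3 of the comparisons, and 17 were called in none. Without the injured library of animal SLRKO2wpc126 these counts were 7, 14 (without Scn2a), 12, 6 and 18. Leaving out another single library ended a call of Kcnk6, Kcnk10, Scn2a, Scn9a, Kcnk4 or Kcnk5 in at least 1 comparison, as given with each gene. No library enters more than 1 of these 4 comparisons.

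Of the 61 members 46 had at least 1 promoter window in the RefSeq table for GRCm38.p6, and 4 short motifs were searched on both strands of the 250 bases before the start of transcription: GCGNGGGCG, the site of EGR factors, TGANTCA, the AP-1 site, TGACGTCA, the cAMP response element, and ACAAAG, a SOX core. EGR2 (Krox20) and SOX10 are transcription factors of myelinating Schwann cells, and AP-1 includes c-Jun, which is induced in Schwann cells after injury. The EGR letters were in 4.70% of all 32851 windows. By gene they were in 1440 of 27025 genes (5.33%), in 4 of the 46 members (Scn7a, Scn8a, Kcnk2 and Kcnt2) and in 3 of the 13 members with a window that fell in all 4 comparisons. The AP-1 letters were in 6.75% of all windows and, by gene, in 7.82% of all genes and 3 of the 46 members (Kcnk2, Kcnip3 and Kcne3). Of these Kcnk2 fell in all 4 comparisons. The cAMP response element was in 1.55% of all windows, in 1.77% of all genes and in no member. The SOX letters were in 16.5% of all windows. By gene they were in 18.6% of all genes, in 8 of the 46 members and in 4 of the same 13. None of the 4 motifs was found in the windows of the 4 members with a window that rose in all comparisons. These are matches of letters, not shown sites. The windows of the 3 genes that fell and held the EGR letters are shown with those of Kcnk10, which rose in all comparisons, and Kcnj10, whose injury response differed between the time points in Lepr-ctrl. Scn8a and Kcnk10 had 2 windows each. One window per gene is shown, that with EGR letters where any held them and otherwise that nearest the gene's start. The SOX match of Scn8a and the AP-1 match of Kcnk2 lay in windows not shown. Matches are in capitals and each window is printed in the direction of transcription.
Scn7a (chr2:66784911-66785160, minus strand), match at base -125: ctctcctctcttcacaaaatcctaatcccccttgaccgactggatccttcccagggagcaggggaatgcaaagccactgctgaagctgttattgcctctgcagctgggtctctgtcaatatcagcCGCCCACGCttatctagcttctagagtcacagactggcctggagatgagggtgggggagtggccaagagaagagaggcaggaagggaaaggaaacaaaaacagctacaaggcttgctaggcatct
Scn8a (chr15:100870395-100870644, plus strand), match at base -75: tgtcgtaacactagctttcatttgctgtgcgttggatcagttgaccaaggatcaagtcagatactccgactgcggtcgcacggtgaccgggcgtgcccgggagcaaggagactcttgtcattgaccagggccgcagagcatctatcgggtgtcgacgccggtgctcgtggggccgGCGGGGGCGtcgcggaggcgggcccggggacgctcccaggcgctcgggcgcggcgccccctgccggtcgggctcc
Kcnk2 (chr1:189343354-189343603, minus strand), 1 of its 4 windows, EGR match at base -167 and SOX match at base -10: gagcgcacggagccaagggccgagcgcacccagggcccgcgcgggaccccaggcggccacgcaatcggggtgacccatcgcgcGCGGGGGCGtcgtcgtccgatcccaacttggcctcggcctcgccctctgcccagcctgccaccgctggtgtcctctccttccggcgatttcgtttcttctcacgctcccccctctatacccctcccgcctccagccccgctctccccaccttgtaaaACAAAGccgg
Kcnk10 (chr12:98578214-98578463, minus strand), no match: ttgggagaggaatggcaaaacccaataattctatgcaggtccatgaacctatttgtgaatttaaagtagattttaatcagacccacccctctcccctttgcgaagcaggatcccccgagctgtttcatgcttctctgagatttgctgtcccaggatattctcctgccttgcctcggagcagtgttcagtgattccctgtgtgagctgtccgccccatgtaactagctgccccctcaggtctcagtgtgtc
Kcnj10 (chr1:172340960-172341209, plus strand), no match: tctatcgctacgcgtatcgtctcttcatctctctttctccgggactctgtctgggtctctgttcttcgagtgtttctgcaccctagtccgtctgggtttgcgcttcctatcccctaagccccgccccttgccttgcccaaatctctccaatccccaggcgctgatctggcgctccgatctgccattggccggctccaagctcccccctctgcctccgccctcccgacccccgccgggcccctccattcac

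All 3 tested sodium channel alpha subunits and the sodium-sensing channel Scn7a fell with injury in both genotypes at both time points, though calls of Scn2a and Scn9a turned on single libraries. Scn8a (Nav1.6, the alpha subunit of mature nodes of Ranvier; chr15:100869858-101045938) was at 20.6, 26.6, 24.7, 23.5 and 27.4 CPM in healthy and 12.9, 8.31, 11.6, 12.9 and 7.57 CPM in injured Lepr-ctrl nerves at 2 wpc (log2 fold change -1.20, SE 0.16, adjusted p = 3.38e-08). Values of 30.9, 36.6, 27.8, 32.9 and 34.0 CPM and 7.92, 9.05, 8.69 and 8.72 CPM were measured at 4 wpc (log2 fold change -1.92, SE 0.18, adjusted p = 2.47e-11). No injured library reached the lowest healthy library at either time. In Lepr-cKO Scn8a fell from 23.6 ± 1.69 to 9.37 ± 2.74 CPM at 2 wpc (SD, n = 6 and 5) and from 27.9 ± 4.04 to 10.1 ± 1.13 CPM at 4 wpc (n = 5 and 4). Scn2a (Nav1.2, an alpha subunit of immature nodes and unmyelinated axons) also fell, with log2 fold changes of -1.05, -1.01, -1.17 and -1.41 in Lepr-ctrl at 2 wpc, Lepr-cKO at 2 wpc, Lepr-ctrl at 4 wpc and Lepr-cKO at 4 wpc, the order used for such sets of 4 values from here on. Its values lay close to the fold threshold, and leaving out 1 library ended the call in 2 of 10 fits in Lepr-ctrl at 2 wpc (-0.99 and -0.97), in 7 of 11 in Lepr-cKO at 2 wpc (-0.99 to -0.89, the latter without animal SLRKO2wpc126) and, in Lepr-ctrl at 4 wpc, without the injured library of animal WT-173 (-0.999).

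Scn9a (Nav1.7, the alpha subunit of pain-sensing neurons) was a low gene. It was measured at 0.424, 0.898, 1.68, 1.42 and 0.712 CPM in healthy and 0.343, 1.09, 0.427, 0.0732 and 0.522 CPM in injured Lepr-ctrl nerves at 2 wpc, where the groups overlapped (log2 fold change -1.05, SE 0.45, adjusted p = 0.04). That call was lost in 6 of the 10 fits that left out 1 library (log2 fold change -1.05 to -0.76). At 4 wpc it was at 0.963, 1.67, 1.61, 1.13 and 1.39 CPM in healthy nerves and at 0, 0, 0.167 and 0 CPM in injured Lepr-ctrl nerves. The 4 injured libraries held 3 counts together against 192 in the 5 healthy ones, a ratio of 24.5 with a 95% exact binomial interval of 8.26 to 119.8 that covers counting error only. In Lepr-cKO at 4 wpc the injured nerves held 0.257, 0.492, 0.558 and 0.195 CPM, more than each injured Lepr-ctrl library. Scn9a, Scn2a and Scn7a lie near each other on chromosome 2 (chr2:66480080-66634962, chr2:65620771-65767447 and chr2:66673425-66784914), and all 3 fell in all 4 comparisons. Scn9a was a member only through the healthy libraries, so its lower injured level was set by the rule. In the same stretch Scn3a (chr2:65457118-65567627) and Scn1a (chr2:66270778-66440840) stayed below the level for members.

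Scn7a (Nax, a channel opened by extracellular sodium rather than by voltage, and expressed by Schwann cells) was the most abundant member per kilobase. At 2 wpc it was at 657, 602, 863, 807 and 563 CPM in healthy and 178.9, 581, 247, 194 and 376 CPM in injured Lepr-ctrl nerves (log2 fold change -1.15, SE 0.24, adjusted p = 8.45e-05). The injured library at 581 CPM lay within the healthy range and the other 4 lay below it. The healthy libraries at 4 wpc held 605 to 857 CPM and the injured ones 111 to 218 CPM (log2 fold change -1.96, SE 0.26, adjusted p = 8.01e-08). In Lepr-cKO it fell from 679 ± 107 to 309 ± 39.2 CPM at 2 wpc and from 797 ± 149.8 to 241 ± 84.1 CPM at 4 wpc.

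The beta subunits, which help to traffic and anchor the alpha subunits, did not move together. Scn3b fell at 4 wpc, from 44.0 to 63.8 CPM to 6.66 to 15.5 CPM in Lepr-ctrl (log2 fold change -2.02, SE 0.22, adjusted p = 8.62e-10) and from 45.5 to 65.3 CPM to 16.4 to 28.4 CPM in Lepr-cKO (log2 fold change -1.34, SE 0.21, adjusted p = 1.82e-06). At 2 wpc its log2 fold changes were -0.83 and -0.97, short of the fold threshold. Scn2b rose at 4 wpc, with 3.41, 3.62, 2.06, 2.89 and 2.33 CPM in healthy and 11.1, 11.4, 12.0 and 9.85 CPM in injured Lepr-ctrl nerves (log2 fold change 1.95, SE 0.31, adjusted p = 1.58e-06) and 2.89, 2.45, 2.38, 3.84 and 3.17 against 7.19, 8.64, 5.98 and 10.3 CPM in Lepr-cKO (log2 fold change 1.44, SE 0.31, adjusted p = 0.000174). Every injured library exceeded every healthy one of its group at 4 wpc, while at 2 wpc healthy and injured libraries overlapped in both genotypes.

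Scn4b, the neighbour of Scn2b on chromosome 9 (chr9:45117782-45130070 and chr9:45138395-45154152), showed how 1 library set a call. In injured Lepr-cKO nerves at 2 wpc it was at 2.07, 104, 5.14, 4.3 and 5.33 CPM, against 2.95 at the lowest, 5.83 at the median and 8.01 at the highest in the 6 healthy libraries. The library at 104 CPM was that of animal SLRKO2wpc126, while 3 of the others lay within the healthy range and 1 below it. With it Scn4b was called higher (log2 fold change 2.16, SE 0.56, adjusted p = 0.00119) and without it the direction turned (log2 fold change -0.36, SE 0.28, adjusted p = 0.268). With a block for the animal the log2 fold change was 0.29 and was not called. At 4 wpc, where muscle genes were low in every library, Scn4b was at 16.1, 16.3, 15.5 and 16.04 CPM in injured and 3.8 to 6.62 CPM in healthy Lepr-ctrl nerves (log2 fold change 1.55, SE 0.62, adjusted p = 0.0305), a call lost when any of 4 libraries was left out, one at a time. The Lepr-cKO nerves at 4 wpc held 10.4 to 14.4 CPM against 4.84 to 5.96 CPM (log2 fold change 1.16, SE 0.62, adjusted p = 0.112), with no overlap but no call.

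Another 4 members had almost all of their counts in the library of animal SLRKO2wpc126 and were not tested, since too few libraries held them. Scn4a, the alpha subunit of skeletal muscle, was at 104 CPM there and at most 0.279 CPM in the other 38 libraries. Kcna7, Kcnj11 (Kir6.2, a pore subunit of ATP-sensitive potassium channels) and Kcnc1 were at 36.3, 35.0 and 21.7 CPM there and at most 0.110, 0.844 and 0.612 CPM elsewhere. Kcnn3 and Kcne3 would also have fallen below 0.5 CPM without that library, so 6 of the 61 members owed their place to it.

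**Figure D2:**
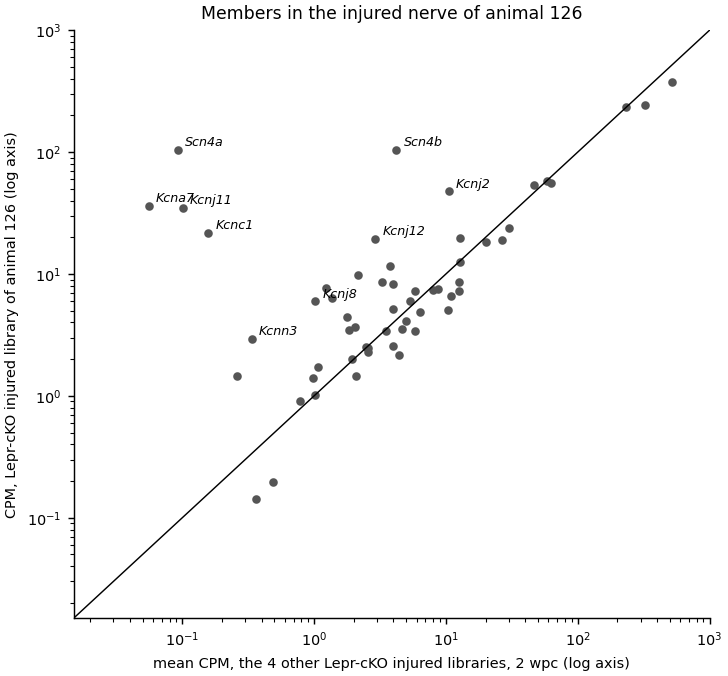
CPM of 57 members in the injured Lepr-cKO library of animal SLRKO2wpc126 at 2 weeks post crush (vertical, log axis) against the mean of the 4 other libraries of that group (horizontal, log axis); the line marks equal levels and values below 0.02 CPM are drawn at 0.02. Scn4a, Kcna7, Kcnj11, Kcnc1, Scn4b, Kcnj12 and Kcnj2 lie above the line, with Scn4a at 104 CPM against 0.0930 CPM.

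Among the Kv1 subunits, which form delayed rectifier and A-type channels, Kcna1 fell, Kcna4 rose, and the most abundant subunit, Kcna2, was called in no comparison. Kcna1 and Kcna2 (Kv1.1 and Kv1.2) are the pair found at the juxtaparanodes of myelinated axons. Kcna1 was at 109, 153, 197, 227 and 133 CPM in healthy and 41.7, 100.4, 28.7, 49.2 and 80.1 CPM in injured Lepr-ctrl nerves at 2 wpc (log2 fold change -1.45, SE 0.37, adjusted p = 0.000854). At 4 wpc it was at 77.4, 490.3, 406, 389 and 302 CPM and 70.8, 34.1, 65.8 and 40.3 CPM (log2 fold change -2.66, SE 0.42, adjusted p = 1.29e-06). The healthy libraries at 4 wpc spanned 77.4 to 490.3 CPM, wider than any injured group, and no injured Lepr-ctrl library of that time reached them. In Lepr-cKO Kcna1 fell from 159.7 ± 47.3 to 48.1 ± 15.2 CPM at 2 wpc and from 254 ± 115 to 65.2 ± 22.2 CPM at 4 wpc.

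Kcna2 was at 559, 506, 604, 615 and 504 CPM in healthy and 426, 593, 468, 527 and 522 CPM in injured Lepr-ctrl nerves at 2 wpc (log2 fold change -0.14, SE 0.15, adjusted p = 0.429). At 4 wpc the Lepr-ctrl groups no longer overlapped, with 547 to 693 CPM in healthy and 303 to 449 CPM in injured nerves, and the difference passed the adjusted p but not the fold threshold (log2 fold change -0.68, SE 0.16, adjusted p = 0.000376). Kcna6, which lies beside Kcna1 and Kcna5 on chromosome 6 (chr6:126708329-126740674), shares 39.6% of its exon bases with the antisense gene Gm26673, a low gene at 0.259 CPM. Its log2 fold changes with injury were 0.76, 0.61, -0.40 and 0.25, none past the fold threshold. Kcna5 had log2 fold changes of 0.75, 1.15, 1.56 and 0.90, called in Lepr-cKO at 2 wpc and in Lepr-ctrl at 4 wpc. The Lepr-cKO call was lost without the injured library of animal SLRKO2wpc126 (log2 fold change 0.78, SE 0.44, adjusted p = 0.118), which held 4.43 CPM against 0.259 to 2.57 CPM in the rest of its group, and without the healthy library of animal SLRKO2wpc125 (0.996).

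Kcna4 (Kv1.4, a fast-inactivating A-type subunit at chr2:107290639-107298502) was low in healthy and higher in injured nerves. It was a member only through the injured libraries, so this order was set by the rule. In Lepr-ctrl at 2 wpc it was at 0.212, 0.31, 0.5, 0.531 and 0.445 CPM in healthy and 3.73, 8.53, 2.13, 3.11 and 2.25 CPM in injured nerves (log2 fold change 3.29, SE 0.47, adjusted p = 2.67e-07). At 4 wpc in Lepr-cKO the values were 0.234, 0.183, 0, 0.345 and 0.198 and 5.73, 2.84, 2.49 and 1.24 CPM (log2 fold change 3.99, SE 0.53, adjusted p = 1.22e-07). Kcnab3, the beta-3 cytoplasmic partner of Kv1 channels, had the largest rise of any tested member in 3 of the 4 comparisons. Like Kcna4 it was a member only through the injured libraries, so its higher level there was set by the rule. It was at 0.485, 0.589, 0.227, 0.177 and 0.889 CPM in healthy and 20.0, 6.73, 14.2, 14.4 and 8.39 CPM in injured Lepr-ctrl nerves at 2 wpc (log2 fold change 4.79, SE 0.38, adjusted p = 7.94e-13), and its log2 fold changes were 4.79, 4.79, 4.29 and 4.72. The lowest injured library of any group, at 6.73 CPM, exceeded the highest healthy library, at 0.889 CPM. The other 2 beta partners did not share this: Kcnab1, of whose exon bases 2.34% overlap A330015K06Rik, fell in Lepr-ctrl at 2 wpc (-1.06), and Kcnab2 was called in none. Kcnab1 lay at the fold threshold in both genotypes at 2 wpc. Its Lepr-ctrl call was lost in 3 of 10 fits without 1 library (-0.97 in each), and in Lepr-cKO its log2 fold change of -0.97 became a call in 3 of 11 fits, among them that without animal SLRKO2wpc126 (log2 fold change -1.03, SE 0.20, adjusted p = 3.56e-05).

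**Figure D3:**
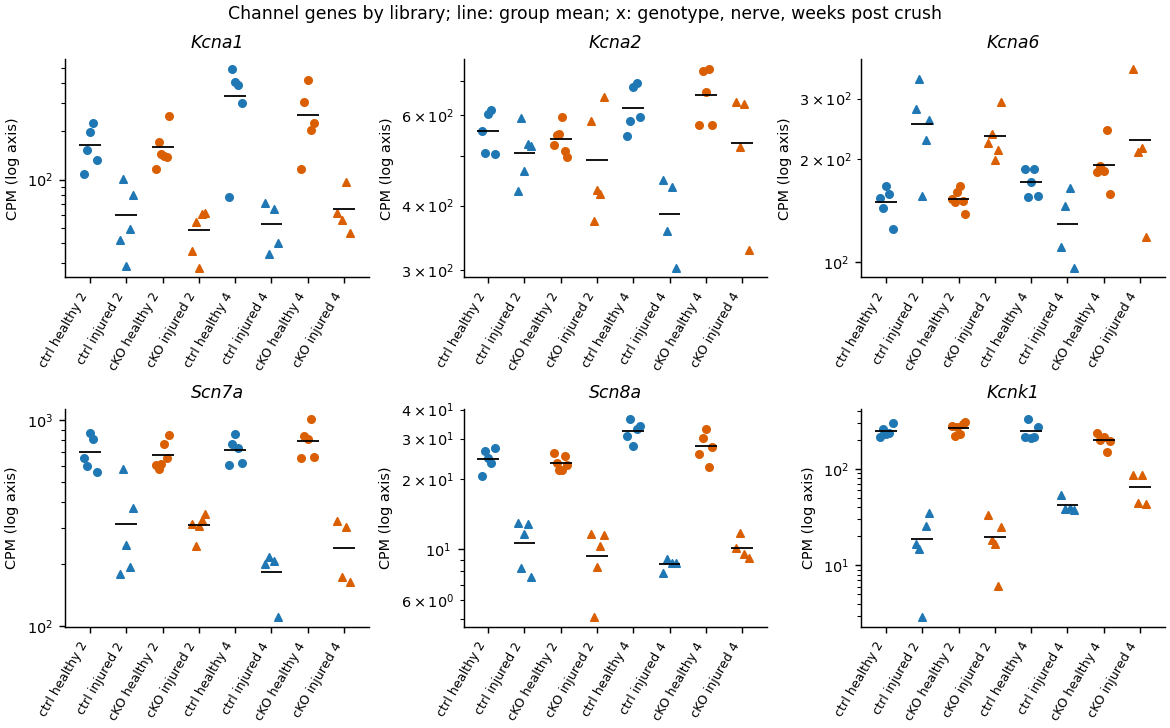
CPM on a log axis of Kcna1, Kcna2, Kcna6, Scn7a, Scn8a and Kcnk1 in each library of the 8 groups, with Lepr-ctrl in blue, Lepr-cKO in orange, healthy nerves as circles, injured nerves as triangles and a line at each group mean; 2 and 4 are weeks post crush. Kcnk1 is lower with injury in every group, at 211 to 333 CPM in healthy and 2.89 to 53.5 CPM in injured Lepr-ctrl nerves, while Kcna2 lies at 504 to 615 CPM in healthy and 426 to 593 CPM in injured Lepr-ctrl nerves at 2 weeks.

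Among the remaining voltage-gated potassium channels, Kcnc2 rose in all 4 comparisons and 2 Kv4 subunits in some. Kcnc2 (Kv3.2), a member only through the injured libraries, was at 0.0295 to 0.817 CPM in healthy and 0.33 to 5.66 CPM in injured ones. Its log2 fold changes were 3.03, 2.34, 4.74 and 2.68. Without the injured library of animal SLRKO2wpc144 the Lepr-ctrl value at 2 wpc was 2.33, and without that of animal KO-177 the Lepr-cKO value at 4 wpc was 1.85, both still called. Kcnd1 (Kv4.1) reached the fold threshold in Lepr-ctrl at 2 wpc (log2 fold change 1.05, SE 0.15, adjusted p = 1.75e-07), and all 4 of its injured groups lay above their healthy group without overlap. Kcnd3 (Kv4.3) rose in Lepr-cKO at both times (log2 fold change 1.08 at 2 wpc, with 1.25 to 2.34 CPM in healthy and 2.41 to 9.18 CPM in injured libraries at 4 wpc). The call at 2 wpc was lost without the healthy library of animal SLRKO2wpc128 (0.99) or the injured one of animal SLRKO2wpc135 (0.97), and Lepr-ctrl was called without the healthy library of animal SLRKO2wpc123 at 2 wpc (1.22) and the injured one of animal WT-178 at 4 wpc (1.01).

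Both silent subunits, which form no channel alone and modify other Kv channels, fell in all 4 comparisons. Kcns3 (Kv9.3) was at 21.7, 22.0, 21.2, 22.5 and 26.3 CPM in healthy and 1.18, 1.58, 1.57, 1.9 and 1.8 CPM in injured Lepr-ctrl nerves at 2 wpc (log2 fold change -3.82, SE 0.21, adjusted p = 1.27e-16). Its spread within a group was small beside this difference. The injured Lepr-ctrl libraries at 4 wpc held 3.92, 3.38, 3.84 and 4.03 CPM (log2 fold change -2.81, SE 0.22, adjusted p = 1.05e-12). Kcnf1 (Kv5.1), at 2.91 to 7.82 CPM in healthy libraries, was at 0 to 1.47 CPM in injured ones, with log2 fold changes of -3.55, -3.51, -2.98 and -2.49. Without animal SLRKO2wpc126 the Lepr-cKO value at 2 wpc was -4.44.

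The Kv7 family carries slowly opening potassium currents. Its member Kcnq1, whose exons overlap the noncoding RNA gene Kcnq1ot1 over 2.96% of their length, rose at 2 wpc in both genotypes (1.15, 1.31, 0.87 and 0.38). The Lepr-cKO call was lost without the injured library of animal SLRKO2wpc135 (0.67), and Lepr-ctrl at 4 wpc was called in 2 of 9 fits without 1 library (1.04 and 1.14). Kcnq5 had log2 fold changes of 0.77, 1.09, -1.12 and -0.67, and its one call, in Lepr-cKO at 2 wpc, was lost without animal SLRKO2wpc126 (log2 fold change 0.61, SE 0.40, adjusted p = 0.185) and with the animal as a block (log2 fold change 0.97).

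Of the 4 EAG-family subunits 1 rose in all comparisons, 1 fell in all and 2 were called in none. Kcnh1 (Kv10.1) rose in all 4 comparisons, from 0.0895 to 1.67 CPM over healthy to 0.921 to 8.21 CPM over injured libraries, with log2 fold changes of 1.88, 2.08, 3.16 and 2.18. Kcnh7 (ERG3) fell in all 4, from 25.9, 20.8, 28.1, 25.3 and 22.1 to 5.07, 5.76, 6.07, 5.31 and 5.91 CPM in Lepr-ctrl at 2 wpc (log2 fold change -2.12, SE 0.16, adjusted p = 1.69e-13), though 4.57% of its exon bases overlap Gca, which is at 48.3 CPM on the other strand. Kcnh2 (ERG1) was the most abundant of the 4 per kilobase, at 11.5 CPM per kilobase, and was called in none (0.85, 0.60, -0.32 and -0.06). Kcnh8 is taken up with the genotype comparison below.

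The inward rectifiers, which pass potassium more readily into than out of the cell, held 2 genes that fell in all 4 comparisons and 2 that rose in some. Kcnj8 (Kir6.1) is the pore of the ATP-sensitive potassium channel of pericytes and vascular smooth muscle. It was at 15.2, 13.7, 12.2, 12.5 and 16.4 CPM in healthy and 1.45, 0.869, 0.0949, 0.989 and 0.979 CPM in injured Lepr-ctrl nerves at 2 wpc (log2 fold change -3.97, SE 0.53, adjusted p = 5.75e-08), and no injured library of any group reached the lowest healthy library. In Lepr-cKO at 2 wpc it was at 0.518, 5.96, 0.367, 1.08 and 2.12 CPM, highest in animal SLRKO2wpc126 (log2 fold change -2.82, SE 0.48, adjusted p = 4.19e-06, and -3.79 without it). Its regulatory partner Abcc9 (SUR2) fell too, with log2 fold changes of -2.80 and -3.10 in Lepr-ctrl and -2.90 in Lepr-cKO at 4 wpc. In Lepr-cKO at 2 wpc Abcc9 was not called (-0.12) but fell without animal SLRKO2wpc126 (-2.44). The summed level of 6 smooth muscle and pericyte markers was 406 to 728 CPM in healthy libraries and 82.3 to 463 CPM in the injured libraries other than that of animal SLRKO2wpc126, where it was 2091 CPM, and its part in the Kcnj8 values was not tested.

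Kcnj12 (Kir2.2) fell in all 4 comparisons. It was at 30.6, 33.9, 37.2, 37.2 and 30.6 CPM in healthy and 3.05, 4.2, 3.67 and 1.59 CPM in injured Lepr-ctrl nerves at 4 wpc (log2 fold change -3.41, SE 0.49, adjusted p = 2.99e-07), and at 2 wpc the injured Lepr-cKO libraries held 2.48, 19.4, 2.17, 4.98 and 2.02 CPM, again highest in animal SLRKO2wpc126 (log2 fold change -2.02, SE 0.40, adjusted p = 4.35e-05, and -3.11 without it). Its relative Kcnj2 (Kir2.1) was called in none, with log2 fold changes of 0.17, 0.90, 0.74 and 0.50 and a value of 47.7 CPM in animal SLRKO2wpc126 against 3.92 to 16.7 CPM in the healthy libraries of that group. It was called higher in Lepr-cKO at 2 wpc in 4 of 11 fits without 1 library (1.07 to 1.17), each of which kept that animal's injured library, and in Lepr-ctrl at 4 wpc without the healthy library of animal WT-178 (1.13). Kcnj13 (Kir7.1) was called higher in Lepr-ctrl at 4 wpc, at 0.111, 0.291, 0.0895, 0.0241 and 0 CPM in healthy and 1.13, 1.21, 2.9 and 3.28 CPM in injured nerves (log2 fold change 4.44, SE 1.23, adjusted p = 0.00219). Of its exon bases 49.1% overlap Gigyf2, a gene on the other strand at 67.5 CPM, so its counts are uncertain.

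Kcnj10 (Kir4.1), the glial channel that takes up extracellular potassium, rose at 2 wpc in both genotypes. It was at 8.94, 13.1, 12.1, 11.7 and 8.54 CPM in healthy and 112, 49.7, 8.4, 49.1 and 62.4 CPM in injured Lepr-ctrl nerves (log2 fold change 2.37, SE 0.43, adjusted p = 1.22e-05), where 4 injured libraries lay far above the healthy range and 1, at 8.40 CPM, below it. In Lepr-cKO the healthy libraries were at 8.87 at the lowest, 8.97 at the median and 13.9 at the highest CPM and the injured ones at 88.9, 57.7, 45.4, 59.1 and 42.1 CPM, with no overlap (log2 fold change 2.56, SE 0.40, adjusted p = 1.28e-06). At 4 wpc the genotypes differed in what was called. Lepr-ctrl held 16.4, 9.49, 15.1, 22.1 and 12.5 CPM in healthy and 10.4, 8.73, 26.3 and 7.88 CPM in injured nerves (log2 fold change -0.17, SE 0.45, adjusted p = 0.748), while Lepr-cKO held 9.44, 19.2, 14.9, 18.1 and 15.1 and 80.2, 40.3, 39.6 and 9.32 CPM (log2 fold change 1.47, SE 0.43, adjusted p = 0.00464). The Lepr-cKO call was lost without the library at 80.2 CPM, of animal KO-169 (log2 fold change 0.96). The difference between the genotypes in this response (log2 fold change 1.64, SE 0.62, adjusted p = 0.384) did not pass the test. Mitochondrially encoded genes held 2.95%, 12.6%, 9.84% and 20.2% of counts in the injured Lepr-cKO libraries at 4 wpc, in the order above. The injured Lepr-ctrl ones held 17.2% to 21.6%. At 2 wpc the Lepr-ctrl library at 8.40 CPM held 33.0% and the other injured ones 8.19% to 11.8%. Injured Lepr-cKO libraries at 2 wpc held 12.9%, 5.56%, 19.1%, 29.7% and 15.3%. The part of this share in the Kcnj10 values was not tested.

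The K2P channels, which carry the resting leak of potassium, held 4 genes that fell in all comparisons and 2 that rose in all. Kcnk1 (TWIK-1; chr8:125995170-126030685) was the second most abundant member per kilobase. It was at 217, 258, 233, 238 and 298 CPM in healthy and 16.6, 14.6, 2.89, 25.3 and 34.5 CPM in injured Lepr-ctrl nerves at 2 wpc (log2 fold change -3.72, SE 0.38, adjusted p = 1.81e-10). Injured libraries at 4 wpc held 53.5, 38.2, 39.1 and 37.1 CPM against 215, 333, 211, 214 and 270.1 CPM in healthy nerves (log2 fold change -2.57, SE 0.39, adjusted p = 7.36e-07). In Lepr-cKO the injured libraries held 33.0, 18.4, 16.5, 6.1 and 24.9 CPM at 2 wpc and 87.5, 43.8, 86.5 and 43.0 CPM at 4 wpc, against 219 to 307 and 150.5 to 238 CPM in healthy nerves. The levels of healthy and injured libraries were apart in all 4 comparisons, and the injured libraries were higher at 4 than at 2 wpc.

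Kcnk2 and Kcnk4 (TREK-1 and TRAAK) are mechanosensitive channels known at nodes of Ranvier. Kcnk2 was at 43.2, 35.4, 38.1, 45.2 and 34.9 CPM in healthy and 6.32, 4.44, 5.83, 6.66 and 8.19 CPM in injured Lepr-ctrl nerves at 2 wpc (log2 fold change -2.64, SE 0.16, adjusted p = 1.25e-15), and at 17.5, 13.9, 13.2 and 11.7 CPM in injured nerves at 4 wpc (log2 fold change -1.32, SE 0.17, adjusted p = 2.49e-08). Kcnk4, which overlaps Catsperz over 13.1% of its exon bases, had log2 fold changes of -1.30, -1.87, -2.19 and -1.29, and Kcnk5 (TASK-2) -1.38, -1.32, -1.84 and -1.04. In Lepr-cKO at 4 wpc the Kcnk4 call was lost in 3 of 9 fits without 1 library (-1.23 to -1.11) and the Kcnk5 call without the injured library of animal KO-177 (-0.83). In Lepr-ctrl at 4 wpc the Kcnk4 value was -1.23 without the healthy library of animal WT-170. The TREK-1 relative Kcnk10 (TREK-2), a member only through the injured libraries, went the other way. It was at 0.303, 0.403, 0.227, 0.206 and 0.267 CPM in healthy and 5.6, 2.87, 1.09, 2.75 and 3.2 CPM in injured Lepr-ctrl nerves at 2 wpc (log2 fold change 3.45, SE 0.56, adjusted p = 2.07e-06). At 4 wpc the Lepr-ctrl groups overlapped, at 0.593, 0.0416, 0.179, 0.193 and 0.0323 and 0.522, 0.701, 1.73 and 0.281 CPM (log2 fold change 2.00, SE 0.63, adjusted p = 0.00641), and the call was lost without the library at 1.73 CPM (log2 fold change 1.29). Kcnk6 (TWIK-2) rose by close to the fold threshold in all 4 (1.00, 1.26, 1.04 and 1.15), and leaving out 1 library ended the Lepr-ctrl call in 5 of 10 fits at 2 wpc (0.91 to 0.97) and in 2 of 9 at 4 wpc (0.92 and 0.97). Kcnk3 (TASK-1), also a member only through the injured libraries, rose in 3 comparisons (3.08, 2.59, 1.81 and 1.39). Its healthy and injured libraries overlapped in all but Lepr-ctrl at 2 wpc. Without animal SLRKO2wpc126, at 7.74 CPM against 0.720 to 1.55 CPM in the rest of its group, the Lepr-cKO value at 2 wpc was 1.56 (SE 0.58, adjusted p = 0.0186), and the Lepr-ctrl call at 4 wpc was lost in 5 of 9 fits without 1 library (1.16 to 1.82). Kcnk13 (THIK-1) was called in none, at 10.2 to 17.9 CPM in healthy and 5.6 to 23.1 CPM in injured libraries.

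Of the 6 calcium- or sodium-activated channels and their relative Kcnu1 (Slo3, gated by pH and voltage), Kcnt1 (Slack, opened by sodium) fell in all 4 comparisons. It was at 35.8, 63.4, 7.72, 7.61 and 11.7 CPM in healthy and 5.98, 0.741, 0.332, 2.49 and 1.31 CPM in injured Lepr-ctrl nerves at 2 wpc (log2 fold change -3.54, SE 0.73, adjusted p = 8.23e-05). The value was -2.84 without the healthy and -4.37 without the injured library of animal SLRKO2wpc123, and in Lepr-cKO at 2 wpc it moved from -3.04 to -2.33 without the healthy library of animal SLRKO2wpc125. Kcnn4 (KCa3.1, of immune and other non-excitable cells) rose in Lepr-ctrl at 2 wpc, from 11.8, 17.8, 10.4, 9.94 and 11.1 to 27.0, 40.5, 30.1, 21.8 and 23.1 CPM (log2 fold change 1.22, SE 0.25, adjusted p = 6.66e-05), and was at 10.5, 14.2, 18.4 and 9.94 CPM in injured nerves at 4 wpc (log2 fold change -0.13, SE 0.27, adjusted p = 0.687). The summed level of 7 macrophage markers was 53.0 to 221 CPM in healthy and 213 to 709 CPM in injured libraries other than that of animal SLRKO2wpc126 (132 CPM). In the injured Lepr-ctrl nerves this sum was 215 to 508 CPM at 2 wpc and 389 to 709 CPM at 4 wpc. Its part in the Kcnn4 values was not tested. Kcnn2 (SK2) had log2 fold changes of -1.42, -0.61, -2.74 and -1.76, called in 3 comparisons. Of the 8 tested auxiliary subunits and regulators other than Kcnab3 and Kcne3 none rose, and Kcnmb4 (the beta-4 subunit of BK channels, of whose exon bases 20.8% overlap the antisense gene Kcnmb4os2) fell in 3 comparisons (-1.30, -1.18, -1.06 and -0.43), of which that in Lepr-ctrl at 4 wpc was lost without the injured library of animal WT-170 or WT-178 (-0.99 in each). Kcnn1, Kcnn3, Kcnt2 and Kcnu1 and, among the auxiliary genes, Kcnab2, Kcnip2, Kcnip3, Kcne2, Kcne4 and Kcnrg were called in none. Without animal SLRKO2wpc126, at 9.83 CPM against 1.76 to 2.44 CPM in the rest of its group, Kcne4 fell in Lepr-cKO at 2 wpc (log2 fold change -1.20, SE 0.37, adjusted p = 0.00502, against -0.44 with it). Kcne4 was also called in Lepr-ctrl at 2 wpc without the injured library of animal SLRKO2wpc131 (-1.16), and Kcnt2 in Lepr-cKO at 4 wpc without that of animal KO-177 (1.15).

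The genes that hold channels in place were read from lists of partners. Of 14 tested scaffold genes of the node, paranode and juxtaparanode, 7, 8, 9 and 7 fell in the 4 comparisons and none rose, with list medians of -0.97, -1.03, -1.44 and -1.30 on the log2 scale against all-gene medians of 0.08, 0.10, 0.02 and 0.06. Nfasc (neurofascin) fell from 828 ± 69.9 to 125.7 ± 39.8 CPM in Lepr-ctrl at 2 wpc (SD, n = 5 and 5), Ank3 (ankyrin-G, which anchors nodal sodium channels) from 506 ± 71.2 to 230.2 ± 97.1 CPM, and Cntn1 (contactin-1, of the paranode) from 13.8 ± 4.12 to 0.543 ± 0.33 CPM. Nrcam and Adam22 also fell in all 4 (-1.42, -1.39, -2.10 and -1.32 and -1.37, -1.45, -2.06 and -1.44). Cntnap1 (Caspr) was called in none (0.40, 0.30, 0.11 and 0.37). Of 15 sodium pump subunits, their regulators and cation-chloride transporters, 6, 6, 6 and 2 fell and 2, 3, 2 and 3 rose. Of 10 tested genes of other channel-binding proteins 4, 3, 5 and 4 fell and 0, 1, 1 and 1 rose. Without animal SLRKO2wpc126 the Lepr-cKO counts at 2 wpc were 7 lower and 0 higher for the scaffold genes, 7 and 2 for the pump and transporter genes, and 4 and 0 for the other channel-binding proteins. Cntnap2 (Caspr2, of the juxtaparanode) turned from a log2 fold change of 1.51, not called, to -2.53, called lower, without that library, and 4 fits that each left out 1 of the remaining injured libraries called it higher (1.82 to 1.86). The summed level of 8 myelinating Schwann cell markers was 85352 to 117733 CPM in healthy libraries and 11123 to 79346 CPM in injured ones, with no marker at 0, and its part in these falls was not tested.

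The study's main question was the effect of deleting Lepr exon 1 in Schwann cells. In healthy nerves edgeR called no member between Lepr-cKO and Lepr-ctrl at either time (0.00542% of all genes were called at each), and DESeq2 called none. At 2 and 4 wpc 1 and 2 members had an unadjusted edgeR p under 0.05, as had 222 and 346 of all 18442 tested genes. In injured nerves at 2 wpc edgeR and DESeq2 called no member (edgeR called 0.569% of all genes). There 9 members had an unadjusted edgeR p under 0.05, as had 1187 of all 18442 genes. The largest difference there, in Scn4b (log2 fold change 2.39, adjusted p = 0.0601), was -0.14 without animal SLRKO2wpc126.

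In injured nerves at 4 wpc edgeR called 1 member, Kcnh8, where it called 0.45% of all genes (0.363% higher and 0.0868% lower in Lepr-cKO). Kcnh8 (Kv12.1, an EAG-family channel; chr17:52602709-52979194) was at 9.36, 5.91, 9.74 and 6.26 CPM in Lepr-cKO and 2.96, 4.33, 4.51 and 1.69 CPM in Lepr-ctrl, without overlap (log2 fold change 1.20, SE 0.27, adjusted p = 0.0269). In the healthy nerves it was at 5.38, 7.87, 8.56, 9.41 and 5.98 CPM and 4.48, 5.37, 8.99, 8.04 and 4.4 CPM (log2 fold change 0.25, SE 0.23, adjusted p = 1.00). The call was lost in 5 of the 8 fits that left out 1 of these injured libraries, and in the fit of the 2 groups alone. Kcna6 passed the adjusted p but not the fold threshold, at 366, 210.1, 215 and 118 CPM in Lepr-cKO and 110.3, 145, 164 and 96.3 CPM in Lepr-ctrl (log2 fold change 0.82, SE 0.21, adjusted p = 0.0469).

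The count of called members turned on single libraries. Without the Lepr-cKO library of animal KO-177, 8 members were called higher in Lepr-cKO, among them Kcna6, Kcnh8, Kcnj10, Kcnk10, Kcnk5, Kcnn2 and Scn9a. Without the Lepr-ctrl library of animal WT-173, 4 were (Kcnh8, Kcnj10, Kcnk5 and Scn9a). None was called without any 1 of Lepr-ctrl animals WT-170, WT-171 or WT-178 or Lepr-cKO animals KO-169 or KO-176. The share of all genes called in these fits is not given here. Whether these counts are particular to the members therefore cannot be said. By sex read from expression, animal WT-173 was the only male of the injured Lepr-ctrl group. Animals KO-175 and KO-176 were the males of the injured Lepr-cKO group. With a term for sex 35 of all 18442 genes were higher and 6 lower in Lepr-cKO, against 67 and 16 without it. The myelinating Schwann cell marker sum was 31385 to 79346 CPM in the injured Lepr-cKO and 25566 to 35137 CPM in the injured Lepr-ctrl nerves at 4 wpc, and its part in these differences was not tested. Mitochondrially encoded genes held 20.2% of counts in the library of animal KO-177 and 2.95% to 12.6% in the other injured Lepr-cKO libraries. In the injured Lepr-ctrl libraries they held 17.2% to 21.6%. The part of this share in the calls was not tested either. For the genotype difference in the injury response itself edgeR and DESeq2 called no member at 2 or 4 wpc (edgeR called 0 genes in all). At an unadjusted edgeR p under 0.05 there were 1 and 11 members, and 796 and 2013 of all 18442 tested genes.

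The response to injury also differed between the time points, which came from different animals. In Lepr-ctrl the injury response of 11 members differed between 4 and 2 wpc, where 4.42% of all genes did (1.61% with a higher and 2.81% with a lower response). Of these 8 had a lower response at 4 wpc, among them Kcna6, Kcnh2, Kcnh8, Kcnj10, Kcnn4, Scn3b and Scn9a, and 3 a higher one, Kcnk2, Scn2b and Kcns3. The difference was -2.54 (SE 0.62) on the log2 scale for Kcnj10, -1.70 (SE 0.35) for Kcnh8 and -1.35 (SE 0.37) for Kcnn4, with adjusted p of 0.0079, 0.002 and 0.0159. For Kcnh8 the log2 fold change with injury was 0.83 at 2 wpc and -0.87 at 4 wpc, neither of them called, though the latter was called without animal WT-171 or WT-173 (-1.02 and -1.05). The fitted value for Scn9a rests on the 3 counts given above. Scn2b gained in its response between the time points by 1.66 (SE 0.42, adjusted p = 0.0109), a call lost with the animal as a block (log2 difference 1.43).

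Among the genes that fell, Kcnk2 and Kcns3 fell less at 4 than at 2 wpc in both genotypes. The differences in response were 1.33 and 1.01 on the log2 scale in Lepr-ctrl and 1.01 and 1.17 in Lepr-cKO. Leaving out 1 library at a time lost the Kcns3 call in Lepr-ctrl in 12 fits and the Kcnk2 call in Lepr-cKO in 13, and the Lepr-cKO call of Kcnk2 was lost with the animal as a block (0.97). In Lepr-cKO 3 members differed between the time points, where 1.42% of all genes did (0.949% with a higher response), and the third was Kcnk1, at 2.13 (SE 0.49, adjusted p = 0.0126) against 1.15 (adjusted p = 0.137) in Lepr-ctrl. Without animal SLRKO2wpc126 the count was 5, with Scn2b (1.51) and Scn4b (1.51) added. Without the injured library of animal KO-176 at 4 wpc it was 1, Kcnk2. Kcnj10 had a difference of -1.09 in Lepr-cKO, which did not pass the test (adjusted p = 0.393). Whether these differences between the time points depend on genotype was not tested.

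**Figure D4:**
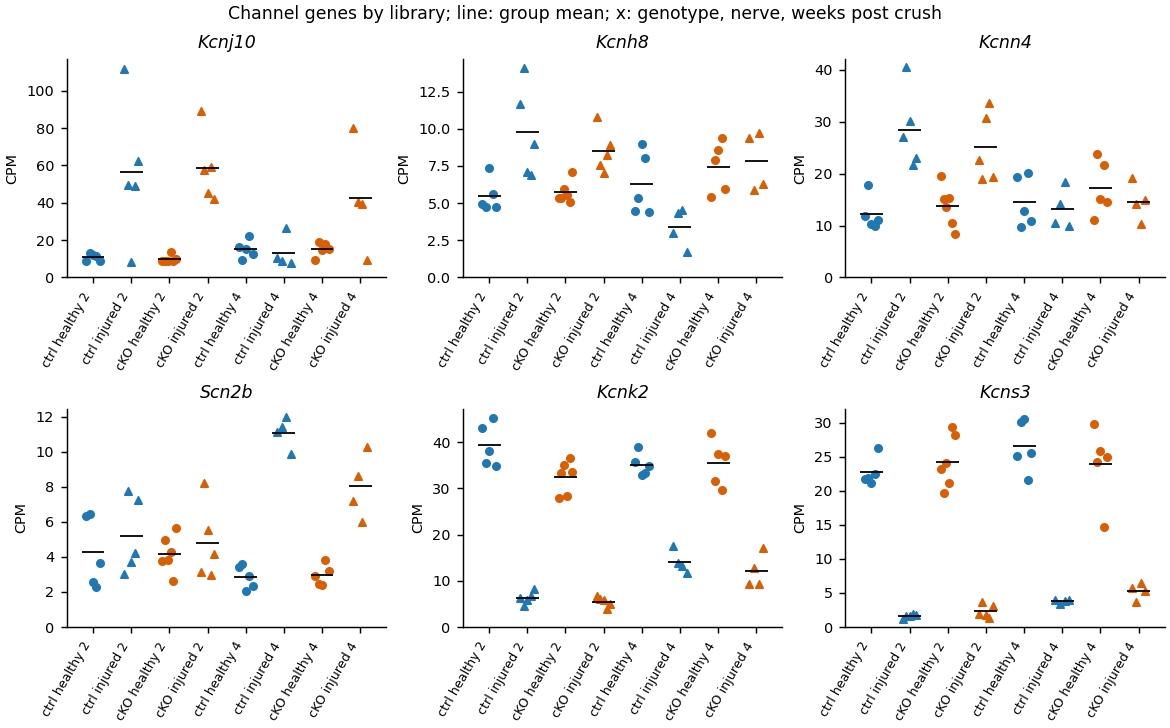
CPM on a linear axis from 0 of Kcnj10, Kcnh8, Kcnn4, Scn2b, Kcnk2 and Kcns3 in each library of the 8 groups, with Lepr-ctrl in blue, Lepr-cKO in orange, healthy nerves as circles, injured nerves as triangles and a line at each group mean; 2 and 4 are weeks post crush. Injured Lepr-ctrl values of Kcnj10 lie between 8.40 and 112 CPM at 2 weeks and between 7.88 and 26.3 CPM at 4 weeks, and those of Kcnk2 and Kcns3 stay below every healthy library at both times.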

How the data were processed

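Bulk RNA-seq gene counts of 39 sciatic nerve libraries were used as the authors deposited them, as whole-number counts per gene. Per the submitters' processing notes reads were demultiplexed with bcl2fastq 2.20.0.422, aligned with STAR 2.5 to GRCm38 and counted with featureCounts 1.5.0-p1. The kit does not mark strand, so reads of a gene and of an overlapping gene on the other strand cannot be told apart. How multimapping reads were treated is not given in the sources used here.

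Members, lists and tests were chosen with earlier results of these data known. One edgeR 4.0.16 quasi-likelihood fit (R 4.3.3) over all 8 groups, with TMM factors and filterByExpr (minimum count 10, minimum total 15), tested 18442 genes, with Benjamini-Hochberg adjustment over all of them. Calls required an adjusted p below 0.05 together with a log2 fold change beyond 1 in either direction. DESeq2 1.42.0, other normalizations and filters, a term for sex read from expression, the compared groups alone and fits without each library were alternatives, and results without animal SLRKO2wpc126 and counts at an unadjusted p under 0.05 were added after seeing the data. The test was checked on simulated counts.

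The animal number in the labels pairs the 2 nerves of a mouse. Of 17 pairs 14 had a correlation over 0.1 of their deviations from the group means over 5000 genes (range -0.116 to 0.567). The fit without this block was the main one because the study's methods name no block, and the blocked value stands beside a result whose call it changed. Values by library are given for channel genes chosen for their known place in nerve physiology, the 6 members per direction with the largest mean fold change among those called in all 4 injury comparisons, members called between genotypes or times, and the 6 most abundant per kilobase. Other members are named with their call, and the results of some genes are not reported here. Coordinates and exon lengths are from GENCODE M21 (GRCm38) and promoter windows from RefSeq (GRCm38.p6). Levels and p-values carry the counting error of the depths given, 10905806 to 45016322 counts per library.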

Additional observations from a re-analysis of the deposited data

Results flagged for a closer look

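In groups of 4 to 6 libraries 1 library of a member could lie further from the others than Dixon's 95% critical value allows, which chance gives in about 1 of 20 groups. Of 240 such checks 22 met it, and no explanation was tested. In injured Lepr-ctrl nerves at 4 wpc these were Scn9a at 0.167 CPM in animal WT-173 against 0 CPM, Scn7a at 111 CPM in animal WT-178 against 200.1 to 218 CPM, Kcnj10 at 26.3 CPM in animal WT-173 against 7.88 to 10.4 CPM, Kcnj2 at 12.9 CPM in animal WT-178 against 7.96 to 8.74 CPM, Kcnk1 at 53.5 CPM in animal WT-170 against 37.1 to 39.1 CPM, Kcnh1 at 4.18 CPM in animal WT-170 against 2.23 to 2.34 CPM, Kcnt1 at 2.04 CPM in animal WT-171 against 1.31 to 1.39 CPM and Scn3b at 6.66 CPM in animal WT-178 against 14.3 to 15.5 CPM. In injured Lepr-cKO nerves at 2 wpc these were Scn4b at 104 CPM in animal SLRKO2wpc126 against 2.07 to 5.33 CPM, Kcnab3 at 7.29 CPM in animal SLRKO2wpc126 against 11.6 to 13.2 CPM, Kcnf1 at 1.47 CPM in animal SLRKO2wpc126 against 0 to 0.385 CPM, Kcnj12 at 19.4 CPM in animal SLRKO2wpc126 against 2.02 to 4.98 CPM and Kcnn3 at 2.94 CPM in animal SLRKO2wpc126 against 0.173 to 0.674 CPM. In healthy Lepr-cKO nerves at 2 wpc these were Kcnj10 at 13.9 CPM in animal SLRKO2wpc135 against 8.87 to 10.02 CPM, Kcnj8 at 23.0 CPM in animal SLRKO2wpc135 against 9.89 to 14.3 CPM and Kcnk10 at 0.43 CPM in animal SLRKO2wpc125 against 0.15 to 0.254 CPM. In healthy Lepr-ctrl nerves at 4 wpc this was Kcnk10 at 0.593 CPM in animal WT-168 against 0.0323 to 0.193 CPM. In healthy Lepr-ctrl nerves at 2 wpc these were Kcnn4 at 17.8 CPM in animal SLRKO2wpc123 against 9.94 to 11.8 CPM and Kcns3 at 26.3 CPM in animal SLRKO2wpc147 against 21.2 to 22.5 CPM. In injured Lepr-ctrl nerves at 2 wpc these were Kcna4 at 8.53 CPM in animal SLRKO2wpc130 against 2.13 to 3.73 CPM and Kcnc2 at 3.04 CPM in animal SLRKO2wpc144 against 0.495 to 1.03 CPM. In healthy Lepr-cKO nerves at 4 wpc this was Kcnf1 at 6.82 CPM in animal KO-179 against 4.03 to 4.72 CPM.

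The injury response also differed between the time points, by edgeR's test of the difference itself on the log2 scale (4 minus 2 wpc), for Kcna6 (-1.16), Kcnh2 (-1.17), Kcnh8 (-1.70), Kcnj10 (-2.54), Kcnk2 (1.33), Kcnn4 (-1.35), Kcns3 (1.01), Scn2b (1.66), Scn3b (-1.19) and Scn9a (-3.53) in Lepr-ctrl and for Kcnk1 (2.13), Kcnk2 (1.01) and Kcns3 (1.17) in Lepr-cKO. The Scn9a value rests on 3 counts in injured Lepr-ctrl nerves at 4 wpc.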

How the results depend on the processing

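Leaving out 1 library at a time gave 12 to 15 higher and 16 to 18 lower members with injury in Lepr-ctrl at 2 wpc, 13 to 18 and 15 to 17 in Lepr-cKO at 2 wpc, 9 to 13 and 17 to 19 in Lepr-ctrl at 4 wpc, and 11 to 12 and 15 to 17 in Lepr-cKO at 4 wpc. Between genotypes it gave 0 to 1 member in injured nerves at 2 wpc and 0 to 8 at 4 wpc, and 0 in healthy nerves and in the genotype difference of the response. Between time points it gave 9 to 12 members in Lepr-ctrl and 1 to 5 in Lepr-cKO. Of 1118 fold changes of named members in these fits 1063 kept their call and direction, 54 lost the call and 1 turned, Scn4b in Lepr-cKO at 2 wpc without animal SLRKO2wpc126, where the range was -0.36 to 2.49.

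Requiring 10 counts in every library left 6, 7, 3 and 5 higher members in Lepr-ctrl and Lepr-cKO at 2 wpc and Lepr-ctrl and Lepr-cKO at 4 wpc, since fewer genes were tested. Of all 12887 genes then tested 1826, 1869, 1990 and 1569 were higher, in the same order. In injured nerves at 2 wpc 5 members differed between genotypes with no expression filter (Kcna7, Kcnc1, Kcnj11, Scn4a and Scn4b). Of all 37867 genes tested without the filter 206 were higher and 1 lower in Lepr-cKO. In the injured library of animal SLRKO2wpc126 the 5 members were at 36.3, 21.7, 35.0, 104 and 104 CPM, in the order named. In every other library they were at most 0.110, 0.612, 0.844, 0.279 and 16.3 CPM. At 4 wpc 2 did with DESeq2, 2 with library totals, 3 with no fold threshold and 0 with the compared groups alone, and the cause was not tested. Of all 18442 genes 93 were higher and 36 lower there with DESeq2, and 120 and 11 with library totals. With the compared groups alone 0 of 15478 were called. The share of all genes with no fold threshold is not given here. With an unadjusted p under 0.05 the counts were 9 and 18 between genotypes in injured nerves at 2 and 4 wpc, 1 and 2 in healthy nerves, 1 and 11 for the genotype difference of the response, and 24 and 10 between time points in Lepr-ctrl and Lepr-cKO. Of all 18442 genes 1187 and 3667, 222 and 346, 796 and 2013, and 4527 and 2698 had such a p, in the same order. With the animal as a block 6 of 100 fold changes lost their call, among them those named in the report and Kcne3 in Lepr-ctrl at 2 wpc (1.17), and the other 94 kept their direction and side of the threshold. Members numbered 60 with TMM-scaled CPM, 55 at 1 CPM and 69 at 0.25 CPM. Library totals in place of TMM moved the all-gene median (log2) from 0.08 to 0.27 and from 0.10 to 0.22 for injury in Lepr-ctrl and Lepr-cKO at 2 wpc, from 0.06 to 0.20 in Lepr-cKO at 4 wpc, from 0.03 to 0.14 between genotypes in injured nerves at 4 wpc, and from 0.01 to -0.13 between time points in Lepr-ctrl. Depth limits the lowest members, whose threshold is 5.45 counts in the smallest library.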
